A study of Mus musculus with 9 samples.

Results

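Laminin and nidogen transcripts were followed in a mouse pancreatic cancer line that had lost the collagen receptor CD49b. The 9 genes are the laminin alpha chains Lama3, Lama4 and Lama5, the beta chains Lamb1, Lamb2 and Lamb3, the gamma chain Lamc1, and the nidogens Nid1 and Nid2. They were chosen by name as members of a gene family, with earlier results of these data known. The 9 do not include every laminin chain. All 9 were found among the 49671 genes of the count tables. RNA came from the CD49b knockout line KPC49bKO (here KO) and its CD49b-intact counterpart KPCWT (here WT). Tumours had been grown under the skin of the flank of syngeneic C57BL/6 mice and dissociated with a commercial enzyme kit, and gave 2 KO and 3 WT libraries. The same lines kept in serum-containing medium and harvested below confluence gave 2 KO and 2 WT libraries. Each genotype is a single line, and the labels state neither whether KO is a single clone nor the age or sex of the mice. The labels call the samples biological replicates, but do not say whether the cultures were grown separately. If they were not, the p-values in culture measure a spread that may be technical.

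Laminins are cross-shaped trimers of an alpha, a beta and a gamma chain that polymerise into the sheet on which epithelial, endothelial and muscle cells rest. Nidogens bind the arm of the Lamc1 chain and link the laminin sheet to type IV collagen and perlecan. A trimer that holds Lama3 and Lamb3 anchors epithelia through the integrin made of the alpha 6 and beta 4 chains. Trimers with Lama5 are common in mature epithelial and vessel basement membranes, and Lama4 is made chiefly by vessel walls and mesenchymal cells. CD49b, the integrin alpha 2 chain encoded by Itga2, pairs with integrin beta 1 and binds collagen and some laminins.

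The 3 beta chain genes lie on different chromosomes, and their promoters are shown because beta chains make up 3 of the 4 members called in each setting. On GRCm38, with gene models of GENCODE M21, Lamb1 spans chromosome 12, 31265234 to 31329644, on the plus strand. Lamb2 spans chromosome 9, 108479736 to 108490530, on the plus strand. Lamb3 spans chromosome 1, 193207699 to 193343878, on the plus strand. Of the other genes, Lama5 lies on chromosome 2 (180176373 to 180225859, minus strand), Lama4 on chromosome 10 (38965515 to 39110188, plus), Lamc1 on chromosome 1 (153218922 to 153332786, minus), Nid1 on chromosome 13 (13437551 to 13512269, plus) and Nid2 on chromosome 14 (19751265 to 19811787, plus). The 250 bases before the start sites that RefSeq gives on GRCm38.p6 are chr12:31265043-31265292 for Lamb1, chr9:108479612-108479861 for Lamb2 and chr1:193301744-193301993 for the first of the Lamb3 starts. They follow 5′ to 3′ on the strand of the gene, with motif matches in capitals.
Lamb1: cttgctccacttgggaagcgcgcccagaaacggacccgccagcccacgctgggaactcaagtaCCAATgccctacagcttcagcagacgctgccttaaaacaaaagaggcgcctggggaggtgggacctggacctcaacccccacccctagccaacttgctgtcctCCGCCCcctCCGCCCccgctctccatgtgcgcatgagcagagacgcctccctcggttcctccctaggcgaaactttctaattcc
Lamb2: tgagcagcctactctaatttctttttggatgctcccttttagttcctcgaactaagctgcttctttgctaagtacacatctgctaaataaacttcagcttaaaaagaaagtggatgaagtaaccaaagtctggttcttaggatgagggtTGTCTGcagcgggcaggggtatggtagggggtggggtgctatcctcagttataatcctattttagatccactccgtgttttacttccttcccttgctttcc
Lamb3: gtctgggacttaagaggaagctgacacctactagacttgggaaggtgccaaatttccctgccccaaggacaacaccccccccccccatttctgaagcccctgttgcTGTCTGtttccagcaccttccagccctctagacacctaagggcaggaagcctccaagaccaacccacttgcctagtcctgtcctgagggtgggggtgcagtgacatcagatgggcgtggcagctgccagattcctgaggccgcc
The AP-1 motif, searched as TGANTCA, was found in none of these promoters. The same held for the TATA box, searched as TATAAA. The GC box, GGGCGG, occurred 2 times before Lamb1 on the other strand, 84 and 75 bases before the start, and CCAAT occurred 187 bases before it. CAGACA, bound by SMAD factors, occurred on the other strand 101 bases before the Lamb2 start and 144 bases before the first Lamb3 start. Before the other Lamb3 start, at chr1:193301993-193302242, CACCTG (an E-box bound by Zeb and Snai factors) lay 6 bases and GGAATG (TEAD, other strand) 167 bases from the start. On either strand, CAGACA was found in 17.1% of the 32851 promoters of the table, CACCTG in 17.2%, GGAATG in 12.6%, GGGCGG in 32.7%, CCAAT in 33.9%, TATAAA in 12.4% and TGANTCA in 6.75%. The beta chain promoters also differed in base composition, with 62.0% G and C before Lamb1, 43.6% before Lamb2 and 58.8% before the first Lamb3 start, where the median of the table was 52.4%. A letter match is a description of the sequence and no evidence of binding.

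Levels are CPM, read counts relative to the size of the library, scaled by trimmed means over all 9 libraries. They come from total counts of 16032912 to 19562695 in tumours and 17738774 to 21247023 in cultures. Itga2, the targeted gene, had 44.6 and 64.1 CPM in KO tumours, against 119, 144 and 137 CPM in WT tumours. In culture it had 96.6 and 103.9 CPM in KO, against 168 and 135 CPM in WT. The Itga2 message was therefore lower, not absent, in the libraries labelled KO. By the edgeR test described below, its log2 fold change (KO over WT) was -1.32 ± 0.18 in tumours (SE, adjusted p = 0.00602). In culture it was -0.64 ± 0.17 (edgeR adjusted p = 0.0135). The call was kept in all 13 alternatives of processing in tumours, but in 9 of 13 in culture. Replicates of a group were not all equally alike: by chi-square per gene WT tumours 1 and 2 differed by 6.55, whereas WT tumour 3 differed from them by 33.3 and 34.0 and the KO tumours from each other by 43.9. Mitochondrial genes took 2.69% to 3.33% of counts in KO tumours and 1.90% to 2.00% in WT tumours, and 2.05% to 2.16% in KO cultures and 3.39% to 4.72% in WT cultures, and the part of this difference in the results was not tested.

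Per kilobase of exon (the union of all exons), Lama5 had the highest mean of the 9 genes in every group. Its level averaged 49.8 ± 19.7 CPM per kb in KO tumours (SD, n = 2), 79.3 ± 7.74 in WT tumours (n = 3), 41.2 ± 15.2 in KO cultures (n = 2) and 33.9 ± 7.05 in WT cultures (n = 2). Behind it came Lamc1 in both kinds of tumour (26.6 ± 4.50 CPM per kb in KO and 49.7 ± 3.00 in WT), whereas Lamb3 came second in culture (30.4 ± 3.23 in KO and 19.0 ± 1.12 in WT). In KO tumours Lamc1 and Lamb3 (22.2 ± 15.8 CPM per kb) did not differ beyond their spread, and neither did Lamb3, Lamb1 (17.4 ± 3.69), Lamc1 (16.7 ± 4.28) and Nid1 (16.7 ± 3.15) in WT cultures. The top of the order depended on the length used. Per kilobase of coding length Lamb3 and Lama5 averaged 57.3 ± 6.09 and 42.0 ± 15.5 CPM per kb in KO cultures, and 35.8 ± 2.11 and 34.6 ± 7.20 in WT cultures. By the same length Lamc1 and Lama5 averaged 85.3 ± 5.15 and 81.0 ± 7.90 CPM per kb in WT tumours, and Lama5 came first only in KO tumours (50.8 ± 20.1, beside 45.7 ± 7.71 for Lamc1). By the longest transcript Lamb3 and Lama5 were level in KO cultures (41.3 and 41.2 CPM per kb), and Lama5 came first in the other 3 groups. At the low end by exons stood Lama4, which had no count in any culture, and Lama3, at 0.00518 CPM per kb in KO cultures. KO tumours differed, with means of 4.31 ± 4.46 CPM per kb for Lama3, 4.19 ± 1.55 for Nid2 and 3.04 ± 1.33 for Lamb1. These 3 did not differ beyond their spread.

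**Figure D1:**
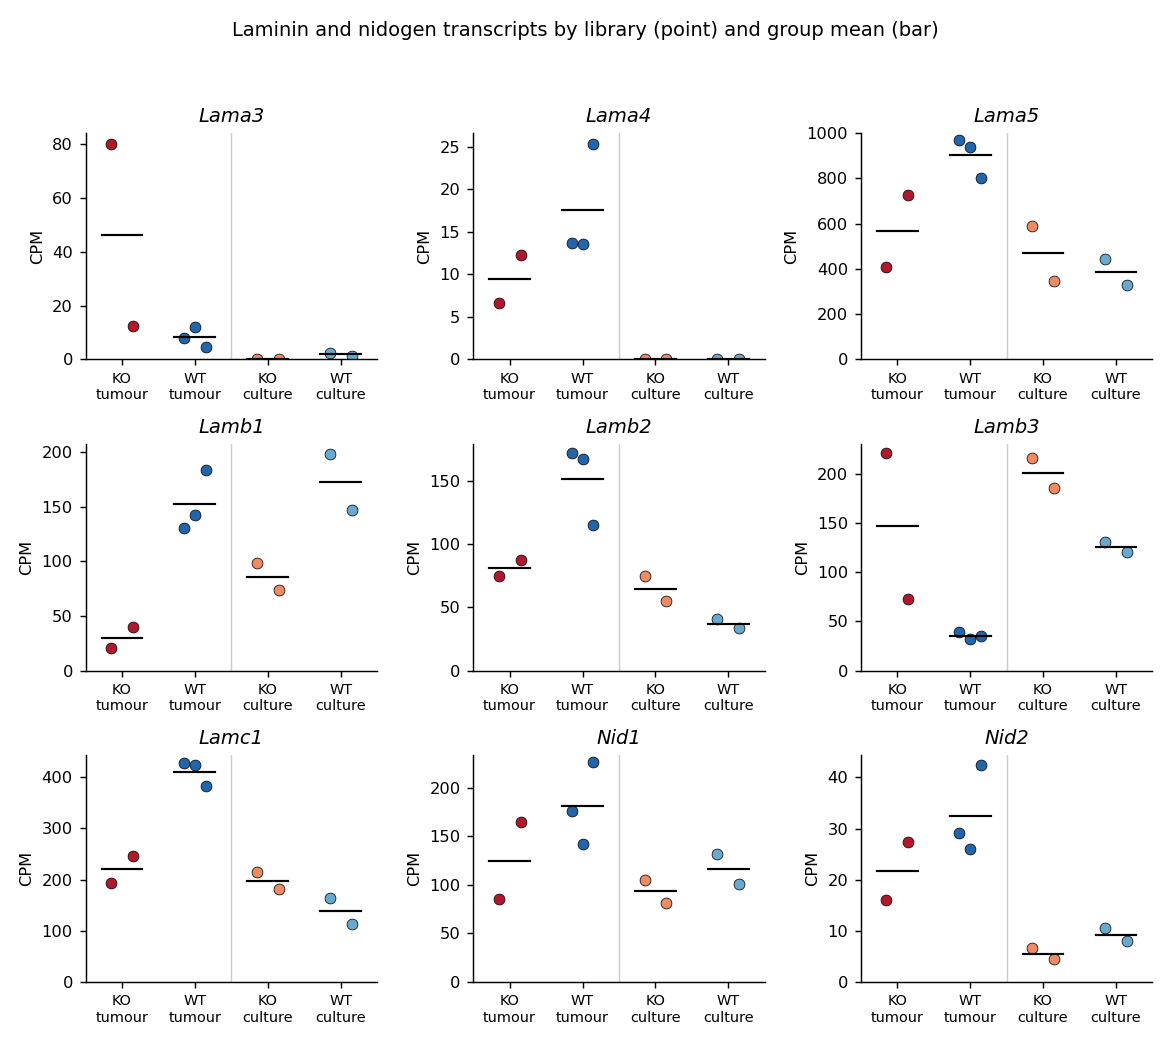
CPM of each of the 9 genes in each library (points) with the group mean (bar), 1 panel a gene, for KO tumours, WT tumours, KO cultures and WT cultures on a linear axis from 0. Lamb1 lies at 20.9 and 39.5 CPM in KO tumours and at 131 to 183 CPM in WT tumours, whereas Lamb3 runs the other way, with the 2 KO tumours at 220.5 and 73.1 CPM and the WT tumours at 32.0 to 39.4 CPM.

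In tumours, Lamb1, Lamb2 and Lamc1 fell in KO and Lamb3 rose, and the remaining 5 genes did not pass the test. In bulk libraries of whole tumours, fewer cells of a type and less RNA per cell cannot be told apart. In culture, Lamb1 and Lama3 fell in KO and Lamb2 and Lamb3 rose. The test was the quasi-likelihood F test of edgeR on raw counts, with Benjamini-Hochberg adjustment over all genes tested and a threshold of 0.05. In tumours 4 of 9 genes passed, beside 19.7% of the 16257 genes tested. By direction, 1 was higher and 3 lower, beside 8.78% and 10.9% of genes tested. In culture 4 of the 8 genes that passed the filter on low counts were called, beside 25.5% of the 13573 genes tested. Of these, 2 were higher and 2 lower, beside 9.27% and 16.2%. Lama3, 1 of the 2 lower, passed the filter only through the WT cultures (37 and 21 counts, against 2 and 0 in KO). It could therefore only be called lower. The median log2 fold change (KO over WT) of the tested members was -0.70 in tumours, where that of all genes tested was -0.0056, and -0.06 in culture, where that of all genes was -0.000302.

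**Figure D2:**
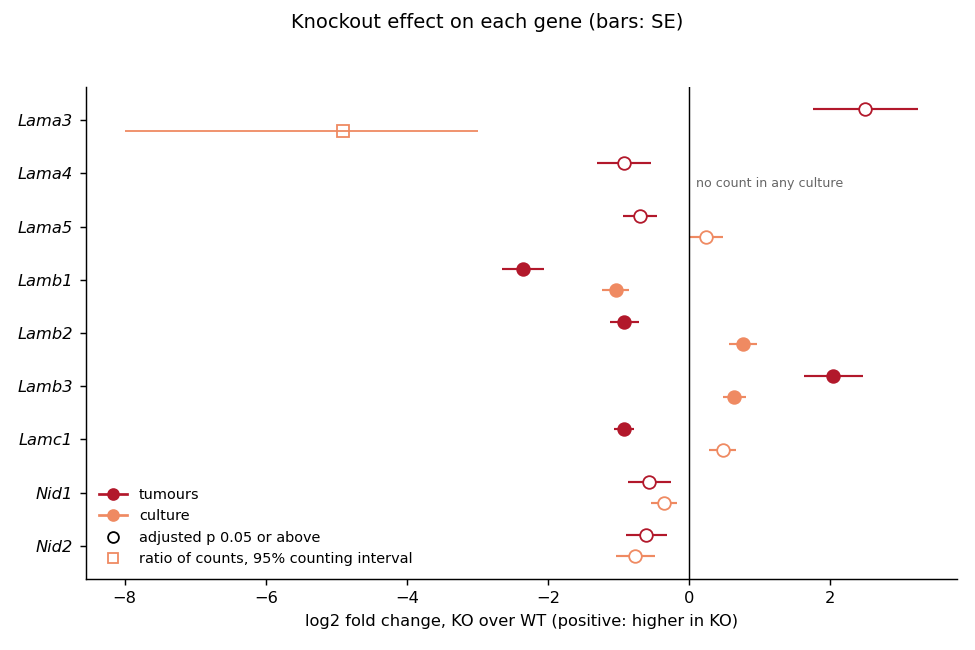
Log2 fold change, KO over WT, of each gene in tumours (dark red) and in culture (orange), with the SE as bars, filled where the adjusted p was below 0.05. The open square is Lama3 in culture, drawn as a ratio of counts with its 95% counting interval. Lamb1 lies left of 0 and Lamb3 right of 0 in both settings, while Lamb2 and Lamc1 lie left of 0 in tumours and right of 0 in culture.

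Lamb1, the beta chain of most embryonic and vessel laminins, was the member with the largest called decrease in tumours. It had 20.9 and 39.5 CPM in KO tumours, against 131, 142 and 183 CPM in WT tumours. Both KO tumours thus lay far below the lowest WT tumour. The log2 fold change was -2.36 ± 0.30 (SE, edgeR adjusted p = 0.00478). In culture Lamb1 had 98.0 and 74.0 CPM in KO, against 198 and 146 CPM in WT. The groups did not overlap there either, and the log2 fold change was -1.04 ± 0.20 (edgeR adjusted p = 0.00184). The call was kept in all 13 alternatives of each setting, with log2 fold changes of -2.85 to -1.97 in tumours and -1.26 to -0.79 in culture. The effect in tumours minus that in culture was -1.33 ± 0.39 on the log2 scale, which did not pass the test (edgeR adjusted p = 0.0715) but did so with DESeq2 (adjusted p = 0.0108), without a filter on low counts and without KO tumour 3 (-1.86, adjusted p = 0.00561).

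Lamb3, the beta chain of the epithelial anchoring trimer, moved the opposite way. KO tumours had 220.5 and 73.1 CPM, against 39.4, 32.0 and 35.0 CPM in WT tumours. Both KO tumours were higher than all 3 WT tumours, but they differed from each other 3.02-fold. The log2 fold change was 2.04 ± 0.42 (edgeR adjusted p = 0.0195). It was 1.02 without KO tumour 1 and 2.65 without KO tumour 3, and the call was lost without WT tumour 1, 2 or 3 (adjusted p = 0.0572, 0.0746 and 0.0621). KO cultures had 216 and 186 CPM of Lamb3, against 131 and 120.2 CPM in WT cultures. The groups were again separate, with a log2 fold change of 0.64 ± 0.16 (edgeR adjusted p = 0.0112). This call was lost without KO culture 1 (adjusted p = 0.146), without WT culture 2 (0.109) and in the fit of all 9 libraries (0.239).

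Lamb2, the beta chain of mature vessel, kidney and nerve-muscle basement membranes, went in opposite directions in the 2 settings. KO tumours had 74.5 and 87.8 CPM, against 172, 168 and 115 CPM in WT tumours. The groups did not overlap, and Lamb2 was lower in KO tumours, with a log2 fold change of -0.92 ± 0.20 (edgeR adjusted p = 0.0243). KO cultures had 74.5 and 55.0 CPM, against 40.6 and 33.8 CPM in WT cultures. Here Lamb2 was higher in KO, by 0.76 ± 0.20 log2 units (edgeR adjusted p = 0.0126). The effect of the knockout in tumours minus that in culture was -1.70 ± 0.30 (edgeR adjusted p = 0.00941). The call in tumours was lost without KO tumour 1 (adjusted p = 0.106), WT tumour 1 (0.0838) or WT tumour 2 (0.0906). The call in culture was lost without KO culture 1 (0.148) or WT culture 2 (0.0891), and so was that of the difference (0.0595 and 0.0653).

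As shares of the 3 beta chains per kilobase of exon, Lamb1 made up 8.97% ± 6.44 in KO tumours (SD, n = 2), against 33.9% ± 8.23 in WT tumours (n = 3). Its share in culture was 17.4% ± 0.926 in KO and 40.7% ± 3.32 in WT (n = 2 each). Lamb3 took the larger part in KO, with 53.7% ± 22.9 in KO tumours, against 11.8% ± 1.23 in WT tumours. The share of Lamb3 in culture was 61.3% ± 2.39 in KO and 44.9% ± 3.29 in WT. Lamb2 held 37.3% ± 16.5 in KO tumours and 54.3% ± 8.65 in WT tumours, and 21.3% ± 1.46 in KO cultures and 14.4% ± 0.0212 in WT cultures. The order of Lamb1 and Lamb2 in WT tumours depended on the length used, since their shares were 42.1% ± 8.40 and 42.5% ± 8.28 per kilobase of coding length. These shares are a description with no test.

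**Figure D3:**
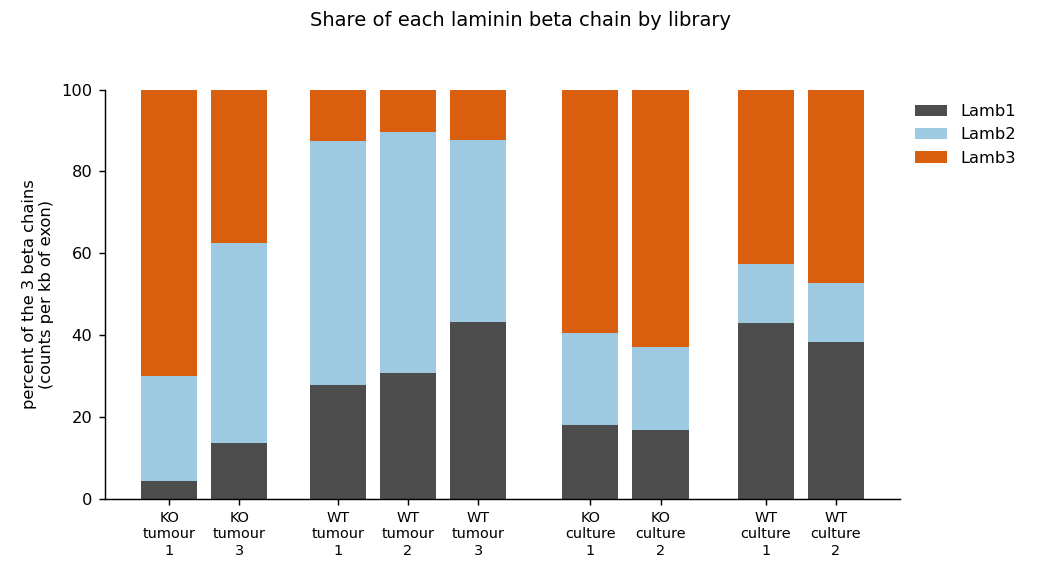
Stacked bars of the share of Lamb1, Lamb2 and Lamb3 among the beta chains, in percent of counts per kilobase of exon, 1 bar a library. Lamb3 fills 69.9% and 37.5% of the bars of the KO tumours and 10.4% to 12.6% of those of the WT tumours.

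Among the alpha chains, Lama5 was the chief one, with 81.8% and 96.7% of alpha chain counts per kilobase in the 2 KO tumours, 96.6% to 97.8% in WT tumours and over 99% in each culture. It had 409 and 725 CPM in KO tumours, against 968, 939 and 803 CPM in WT tumours. Both KO tumours lay below the WT tumours, but the log2 fold change of -0.70 ± 0.24 did not pass the test (edgeR adjusted p = 0.0870). The call was made without KO tumour 3 (-1.13, adjusted p = 0.00935), with DESeq2 (0.0318) and without a filter on low counts (0.0269). In culture Lama5 had 591 and 347 CPM in KO and 443 and 329 CPM in WT. These ranges overlapped, and the log2 fold change was 0.24 ± 0.24 (edgeR adjusted p = 0.512). Without KO culture 1 its sign turned, to -0.20.

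Lama3, the alpha chain of the epithelial anchoring trimer, was nearly silent in culture and varied most between tumours. KO tumour 1 had 80.2 CPM and KO tumour 3 had 12.4 CPM, against 8.12, 12.0 and 4.47 CPM in WT tumours. KO tumour 1 thus stood far above the rest, and KO tumour 3 lay just above the highest WT tumour. The log2 fold change of 2.50 ± 0.74 did not pass the test (edgeR adjusted p = 0.0590). Without KO tumour 1 it was 0.58 (adjusted p = 0.504), without KO tumour 3 it was 3.31 (0.00653), and it passed in the fit of all 9 libraries (0.0124) and without a filter on low counts (0.00285).

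In culture Lama3 rested on few reads, with 2 and 0 counts in KO, against 37 and 21 counts in WT. The ratio of scaled counts, KO over WT, was 0.0332 (95% counting interval 0.00392 to 0.125), and Lama3 was called lower (edgeR adjusted p = 0.000641). The call was lost in the fit of all 9 libraries (0.0592). The ratio in tumours divided by that in culture was 169.7 (counting interval 44.9 to 1435), and this difference was called (edgeR adjusted p = 0.0247). It was not called with limma-voom (0.238) or without any 1 of the 4 cultures (0.0693 to 0.116). These intervals cover counting error only.

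Lama3 and Lamb3 also set the 2 KO tumours apart from each other. KO tumour 1 was 6.45-fold above KO tumour 3 in Lama3 and 3.02-fold above it in Lamb3. The other 7 genes went the other way between these tumours, with KO tumour 1 at 0.516 (Nid1) to 0.849 (Lamb2) of the level in KO tumour 3. Markers of some cell types split these tumours as Lama3 and Lamb3 did, and those of others the opposite way. Epithelial markers summed to 10801 CPM in KO tumour 1 and 8309 CPM in KO tumour 3, against 5015 to 6243 CPM in WT tumours. For pericyte and smooth muscle markers the sums were 177 and 136 CPM, against 150 to 261 CPM in WT tumours. Endothelial, fibroblast, leukocyte, adipocyte and Schwann cell sums were higher in KO tumour 3 than in KO tumour 1. Skeletal muscle markers summed to 53.8 CPM in KO tumour 1 and 11.4 CPM in KO tumour 3, against 17.7, 20.6 and 118 CPM in WT tumours. Keratinocyte markers summed to 173 CPM in KO tumour 1 and 60.8 CPM in KO tumour 3, against 145, 154 and 167 CPM in WT tumours, and to 140.2 to 148 CPM in KO cultures and 116 to 132 CPM in WT cultures. Nearly all of the keratinocyte sum was Krt14 (170.2 and 57.0 CPM in KO tumours), while Krt5, the partner keratin of Krt14 in basal keratinocytes, had no count in either KO tumour. WT tumour 3, the highest in muscle markers, was the lowest tumour in Lama3. The part of these cells in the split was not tested.

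**Figure D4:**
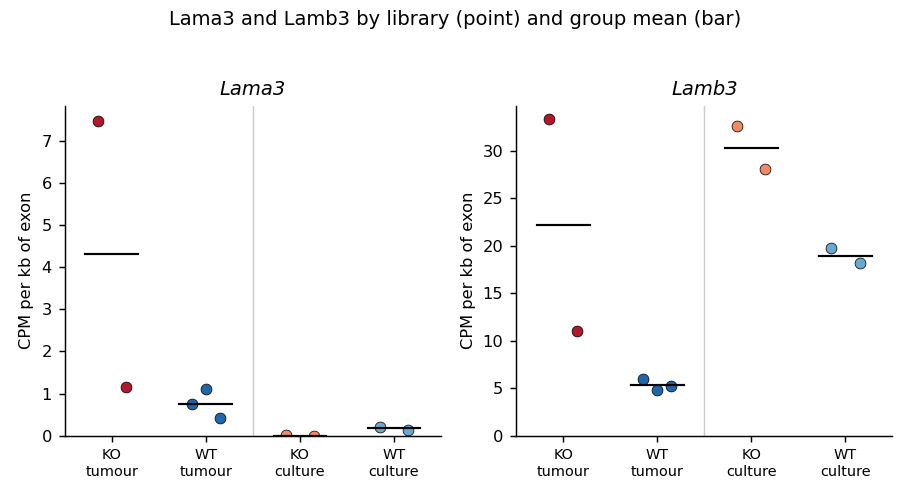
CPM per kilobase of exon of Lama3 and Lamb3, the alpha and beta chains of an epithelial anchoring trimer, in each library (points) with the group mean (bar). KO tumour 1 is the highest tumour in each panel, at 7.46 and 33.3 CPM per kb, and Lama3 is near 0 in culture, where Lamb3 is not.

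Lama4, an alpha chain of vessel walls and mesenchymal cells, was detected in tumours and in no culture. It had 6.60 and 12.2 CPM in KO tumours, against 13.7, 13.6 and 25.3 CPM in WT tumours. The groups did not overlap, but the log2 fold change of -0.92 ± 0.38 did not pass the test (edgeR adjusted p = 0.138, and 0.0701 to 0.436 over the alternatives). No culture had a Lama4 count, so it could not be tested there.

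Lamc1, the gamma chain of most laminins and the one that nidogens bind, fell in KO tumours. It had 194 and 247 CPM in KO tumours, against 427, 424 and 383 CPM in WT tumours. Each KO tumour lay well below each WT tumour, and the log2 fold change was -0.92 ± 0.14 (edgeR adjusted p = 0.00847). The call held in 12 of 13 alternatives, the exception being the demand for a fold of at least 2. In culture Lamc1 had 215 and 181 CPM in KO, against 163 and 113 CPM in WT. The groups were separate, with KO higher, but the log2 fold change of 0.47 ± 0.19 did not pass (edgeR adjusted p = 0.0937). Without WT culture 1 it was 0.78 and did (adjusted p = 0.0122). The effect in tumours minus that in culture was -1.42 ± 0.26 (edgeR adjusted p = 0.0113), which did not pass without KO culture 1 (0.0704) or WT culture 2 (0.0571).

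The nidogens did not pass the test in either setting. Nid1 had 85.0 and 165 CPM in KO tumours, against 177, 142 and 226 CPM in WT tumours. The groups overlapped, since KO tumour 3 lay above WT tumour 2, and the log2 fold change was -0.56 ± 0.30 (edgeR adjusted p = 0.232). Without KO tumour 3 it was -1.08 and passed (adjusted p = 0.0387). Nid2 had 16.0 and 27.4 CPM in KO tumours, against 29.1, 26.1 and 42.4 CPM in WT tumours. Here too KO tumour 3 lay inside the WT range (-0.61 ± 0.29 on the log2 scale, edgeR adjusted p = 0.187).

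In culture Nid1 had 105 and 81.1 CPM in KO and 132 and 101 CPM in WT, which overlapped (-0.36 ± 0.19 on the log2 scale, edgeR adjusted p = 0.192). Nid2 had 6.68 and 4.38 CPM in KO cultures, against 10.5 and 7.90 CPM in WT cultures. Both KO cultures were lower, and the log2 fold change of -0.77 ± 0.28 came near the threshold (edgeR adjusted p = 0.0607). It passed without KO culture 1 (-1.11, adjusted p = 0.0082), without WT culture 2 (-0.97, 0.0264) and without a filter on low counts (0.0451). Exons of Nid2 share 437 bases with Rtraf on the opposite strand, which had 13692 counts in all, against 3364 for Nid2. The strand setting of the counting is not given in the sources used here, so reads in that overlap cannot be told apart.

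The difference between the effects of the knockout in tumours and in culture was called for 3 of the 9 genes, beside 5.69% of the 16793 genes tested. Lama3 was the 1 with a positive difference, beside 4.15% of genes, and Lamb2 and Lamc1 the 2 with a negative difference, beside 1.54%. For Lamb3 it was 1.37 ± 0.49 (edgeR adjusted p = 0.139) and for Lama5 -0.95 ± 0.40 (0.199), neither of them called. Lamb3 and Lama5 passed without KO tumour 3 (1.96, adjusted p = 0.000333, and -1.42, adjusted p = 0.0326). The nidogens differed least, with -0.22 ± 0.41 for Nid1 and 0.14 ± 0.44 for Nid2, signs that turned when single libraries were left out.

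Tumours and cultures of the same line were also set side by side. In this comparison the setting, the batch tag of the labels, the enzymatic dissociation and the host cells of a tumour cannot be told apart. Among KO libraries 3 of the 9 genes were higher in tumours and 1 lower, beside 32.9% and 26.4% of the genes tested (59.3% in either direction). Among WT libraries 6 were higher and 1 lower, beside 36.1% and 29.6% (65.7% in either direction). Lama4, counted as higher in both lines, had no count in any culture. It passed the filter on low counts through tumours alone and could only be called higher there. Lama3, also counted as higher in KO, had 2 and 0 counts in the KO cultures and so had almost no room to be lower in KO tumours. The median log2 fold change (tumour over culture) of all genes was 0.17 in KO and in WT. Scaled by library totals, it was 0.60 in KO and 0.64 in WT, and 74.4% of the calls in KO and 72.7% of those in WT were higher in tumours, where the reported scaling gave 55.5% in KO and 54.9% in WT.

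The genes called higher in tumours of both lines were Lama3, Lama4 and Nid2. Lama4 was at least 102.7-fold higher in KO tumours than in KO cultures and at least 186-fold higher in WT tumours than in WT cultures, taking a floor of 3 counts over the cultures. Pooled over libraries, Lama3 was 728-fold higher in KO tumours than in KO cultures (counting interval 201 to 6017). It had 1372 counts in KO tumour 1 and 230 in KO tumour 3, against 2 and 0 in the KO cultures. In WT it was higher by 2.13 ± 0.75 log2 units (edgeR adjusted p = 0.0264), but not without WT culture 1 (0.0732), WT culture 2 (0.169) or WT tumour 2 (0.0673). Nid2 was higher by 1.96 ± 0.34 log2 units in KO tumours (edgeR adjusted p = 0.000541) and by 1.82 ± 0.31 in WT tumours (0.000398). Nid1 was not called in KO (0.42 log2 units, edgeR adjusted p = 0.244) or in WT (0.65, 0.0596), although it passed in WT in 9 of 17 alternatives.

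Lama5, Lamb2 and Lamc1 were called higher in WT tumours than in WT cultures, by 1.23 ± 0.28, 2.03 ± 0.22 and 1.57 ± 0.19 log2 units (edgeR adjusted p = 0.00266, 2.0e-05 and 3.7e-05). The same genes differed by 0.27, 0.32 and 0.16 log2 units between KO tumours and KO cultures and were not called there. Lamb3 was lower in WT tumours than in WT cultures, with a log2 fold change of -1.82 ± 0.33 (edgeR adjusted p = 0.000655), and was not called in KO (-0.45). Without KO tumour 1 it was lower in KO too (-1.45, adjusted p = 0.000129), and without KO tumour 3 its sign turned. Lamb1 was lower in KO tumours than in KO cultures, with a log2 fold change of -1.51 ± 0.29 (edgeR adjusted p = 0.00117), and was not called in WT, where its value of -0.18 turned positive with library totals. The test of these differences between lines is the same contrast as the difference of the knockout effects given above, which passed for Lamb2 and Lamc1 and not for Lama5, Lamb1 or Lamb3.

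Of the endothelial, fibroblast, pericyte and leukocyte marker lists, that of fibroblasts had the most members called between KO and WT tumours. The summed level of 12 endothelial markers was 74.8 and 138 CPM in KO tumours, against 231, 202 and 330 CPM in WT tumours. That of 10 fibroblast markers was 406 and 656 CPM in KO tumours, against 1666, 1125 and 3080 CPM in WT tumours. Both sums were thus lower in each KO tumour than in each WT tumour, but the endothelial order rested on Flt1, a VEGF receptor that these lines also expressed in culture. The other 11 endothelial markers summed to 54.3 and 104.5 CPM in KO tumours, against 117, 94.2 and 219 CPM in WT tumours. Without Flt1 the KO and WT groups thus overlapped (an alternative chosen after seeing the data). Egfl7, 1 of these 11, was also present in culture, with means of 11.4 CPM in KO and 16.8 CPM in WT. In tumours its means were 9.77 CPM in KO and 17.2 CPM in WT. Beside 10.9% of all genes tested that were lower in KO tumours, 2 of 12 endothelial (Flt1 and Vwf) and 5 of 9 tested fibroblast markers (Col1a1, Col1a2, Col3a1, Col6a3 and Lum) were called lower in KO tumours and none higher. Pericyte and smooth muscle markers summed to 136 to 177 CPM in KO tumours and 150 to 261 CPM in WT tumours (2 of 9 lower), and leukocyte markers to 227 to 326 CPM in KO and 186 to 277 CPM in WT (0 of 9 called), and both of these sums overlapped between KO and WT.

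WT tumour 3, the tumour with the highest endothelial and fibroblast sums, was also the highest in Lama4, Nid1, Nid2 and Lamb1. It was the lowest WT tumour in Lama3 (4.47 CPM), Lama5 (803 CPM), Lamb2 (115 CPM) and Lamc1 (383 CPM). KO tumour 1, with the lowest endothelial and fibroblast sums, was the lowest in each of the 9 genes but Lama3 and Lamb3. The part of host cells in the results for tumours was not tested. In culture the fibroblast markers summed to 0.0695 to 0.167 CPM in KO and 0.980 to 2.78 CPM in WT, and the endothelial markers to 15.4 to 17.0 CPM in KO and 43.2 to 45.3 CPM in WT. Of the endothelial markers 7 of 12 in KO and 5 of 12 in WT cultures had no count in any library. Flt1 was called lower in KO cultures too, with 3.67 and 2.85 CPM in KO, against 28.2 and 22.4 CPM in WT (log2 fold change -2.99 ± 0.25, edgeR adjusted p = 2.96e-06). Of the members called in tumours, Lamb1, Lamb2 and Lamb3 were called in these cultures as well, Lamb2 in the opposite direction. The culture calls of Lamb2 and Lamb3 did not hold without KO culture 1 or WT culture 2. Lamc1, lower in KO tumours, was not called in culture, where its log2 fold change was 0.47 (edgeR adjusted p = 0.0937).

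**Figure D5:**
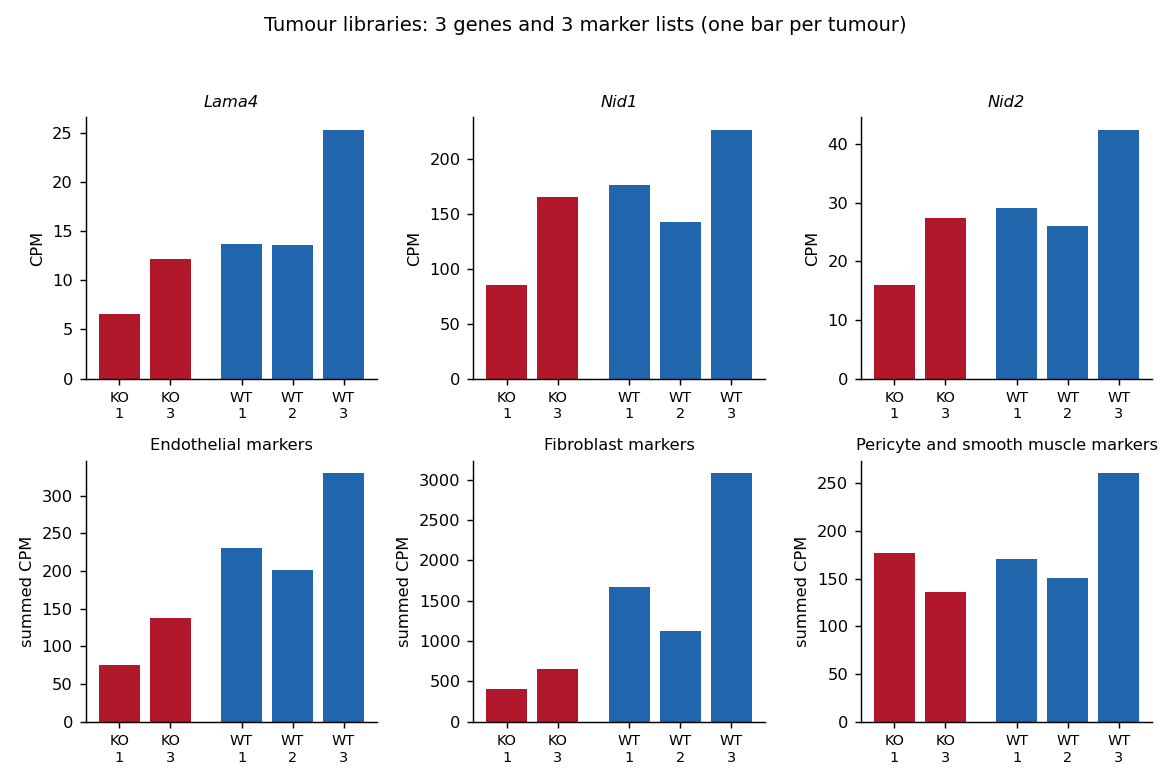
Bars for the 2 KO and 3 WT tumours, in CPM, of Lama4, Nid1 and Nid2 (upper row) and of the summed endothelial, fibroblast, and pericyte and smooth muscle markers (lower row). KO tumour 1 is the lowest and WT tumour 3 the highest in each panel of the upper row, and the same holds for the endothelial and fibroblast sums.

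Epithelial markers, which fit the labelled cell type, summed to 8309 to 10801 CPM in KO tumours and 5015 to 6243 CPM in WT tumours, and to 11039 to 11426 CPM in KO cultures and 11290 to 12345 CPM in WT cultures. Krt8 and Krt19, keratins of simple epithelia, and the mucin Muc1 were called higher in KO tumours, whereas the adhesion molecule Epcam was lower there. Epcam had 0 and 1 counts in KO cultures, against 56 and 53 counts in WT cultures.

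Laminin receptors were described from a list of 10 genes, all of them tested. In tumours 1 was higher and 4 were lower in KO, and in culture 1 was higher and 3 lower. Of all genes tested, 8.78% were higher and 10.9% lower in KO tumours, and 9.27% and 16.2% in KO cultures. Itga3, the integrin alpha chain that binds laminins with Lama5 or Lama3, had 192 and 191 CPM in KO tumours, against 392, 415 and 450 CPM in WT tumours. The KO tumours were close to each other and well below the WT tumours (-1.15 ± 0.12 on the log2 scale, edgeR adjusted p = 0.00297). In culture Itga3 was lower in KO, with a log2 fold change of -0.69 ± 0.17 (edgeR adjusted p = 0.0107), a call that did not hold without KO culture 2 (0.127) or WT culture 1 (0.112). Itgb4, the beta chain that anchors the hemidesmosome, had 169 and 112 CPM in KO tumours, against 299, 286 and 239 CPM in WT tumours (-0.98 ± 0.21, edgeR adjusted p = 0.0236). It was also called lower in culture (-0.71 ± 0.20, edgeR adjusted p = 0.0227). The call in tumours was lost without WT tumour 1 or 2 (0.0692 and 0.0748) and that in culture without KO culture 2 or WT culture 1 (0.129 and 0.195).

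Itga7, a laminin receptor best known from muscle, was the 1 receptor higher in KO in both settings. Its level was 6.78 and 8.54 CPM in KO tumours, against 2.48, 3.27 and 3.32 CPM in WT tumours (1.32 ± 0.27 on the log2 scale, edgeR adjusted p = 0.0206). In culture it had 16.5 and 18.9 CPM in KO, against 6.95 and 4.51 CPM in WT (1.58 ± 0.25, edgeR adjusted p = 0.000534). The call in tumours was lost without WT tumour 1 (0.0984) or WT tumour 2 (0.0838). Integrin beta 1 (Itgb1) and the proteoglycan Sdc1 were also called lower in KO tumours, with log2 fold changes of -0.54 ± 0.12 and -0.56 ± 0.14 (edgeR adjusted p = 0.0266 and 0.0336). Both of these calls were lost without KO tumour 3, WT tumour 1 or WT tumour 2, and that of Sdc1 without KO tumour 1 as well (adjusted p = 0.0551 to 0.130). In culture Sdc1 was called lower (-0.74 ± 0.18, edgeR adjusted p = 0.00764), which did not pass without KO culture 1 (0.130) or WT culture 2 (0.0562). The laminin receptors Itga6, with 333 and 414 CPM in KO tumours and 326 to 346 CPM in WT tumours, and Dag1, with 150 and 155 CPM in KO tumours and 174 to 178 CPM in WT tumours, were not called in either setting.

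Other components of basement membranes were lower or not called. Of 18 tested in tumours 7 were lower in KO and none higher, with all 18 below 0. Of 14 tested in culture 7 were lower and none higher. The share of all genes tested that was lower in KO was 10.9% in tumours and 16.2% in culture. Col7a1, the collagen of the fibrils that tie epithelial basement membrane to the tissue beneath, had 4.15 and 2.76 CPM in KO tumours, against 65.3, 55.4 and 47.5 CPM in WT tumours (-4.04 ± 0.26 on the log2 scale, edgeR adjusted p = 9.0e-04). Pxdn, the peroxidase that crosslinks type IV collagen, had 7.25 and 11.6 CPM in KO tumours, against 129, 136 and 144 CPM in WT tumours (-3.87 ± 0.22, edgeR adjusted p = 0.000575). In culture Pxdn had 4.51 and 4.31 CPM in KO, against 69.6 and 58.3 CPM in WT (-3.90 ± 0.21, edgeR adjusted p = 1.9e-07). The KO and WT ranges of Pxdn thus lay far apart in both settings, and its call and that of Col7a1 were kept in all 13 alternatives of each setting. Fbln1, Fbln2 and Col4a5 were also called lower in KO in both settings. The calls of Col4a5 were lost without any 1 of the WT tumours (adjusted p = 0.0585 to 0.0906) or without KO culture 1, KO culture 2 or WT culture 2 (0.0996 to 0.134), and that of Fbln2 in culture without KO culture 2 (0.312) or WT culture 1 (0.183). Col4a1 and Col4a2, the chains of the common type IV collagen, and Hspg2 (perlecan) and Agrn (agrin) were not called in either.

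Of 16 enzymes tested that cut or build basement membrane, 1 was higher (Ctss, a cathepsin) and 8 lower in KO tumours, and of 11 tested in culture 5 were lower and none higher. Loxl2, which crosslinks collagen, and Bmp1, which trims procollagens and laminin chains, were lower in both settings, with log2 fold changes of -1.31 ± 0.13 and -1.44 ± 0.25 in tumours and -1.60 ± 0.19 and -1.51 ± 0.23 in culture. Of the transcription factors and growth factors listed with laminin genes, 2 of 13 were higher and 4 lower in KO tumours. In KO cultures 1 of 12 was higher and 4 lower. Beside these enzymes and factors, 8.78% of all genes tested were higher and 10.9% lower in KO tumours. The shares in KO cultures were 9.27% and 16.2%. Sox17 was higher and Tgfb2 and Twist1 lower in both settings. Ntn4, a netrin that binds laminin gamma chains, was called higher in KO in culture, with 17.7 and 18.3 CPM in KO, against 6.32 and 4.38 CPM in WT (1.70 ± 0.24, edgeR adjusted p = 0.000224). In tumours Ntn4 was not called (0.30 ± 0.50, edgeR adjusted p = 0.705). The KO tumours, at 4.70 and 15.4 CPM, lay on either side of the WT range of 5.84 to 9.55 CPM.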

How the data were processed

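Polyadenylated RNA of 9 samples in 4 groups was sequenced. Per the labels' protocols, ERCC spike-in RNA went in before library preparation, and reads were deduplicated by molecular identifiers. DESeq2, featureCounts, Subread 1.5.2, STAR 2.5.2b and fastp 0.23.1 are named in the submitters' processing notes, with GRCm38 as the build. Neither the strand setting nor the release of the annotation is given in the sources used here. Raw counts per Ensembl gene, deposited as 1 table per setting, cover 49671 genes. GENCODE M21 gives symbols for 49412 of them. The authors' normalized and rlog tables were not used. The KO tumour columns carry the numbers 1 and 3, unlike the labels (1 and 2), and column 3 was mapped by group alone.

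In each fit filterByExpr (counts of at least 10, in total 15) chose the genes tested, and libraries were scaled by TMM. The test was edgeR's quasi-likelihood F test (version 4.0.16, R 4.3.3), adjusted by Benjamini-Hochberg over all genes tested. KO and WT were compared within each setting. The difference of the effects, and tumours against cultures, came from 1 fit of all 9 libraries. The prior count was 0.125, and each SE is the log2 fold change over the root of its F. Printed levels are CPM scaled by TMM over the 9 libraries. Lengths are unions of exons of GENCODE M21. Intervals (95%, exact binomial) and the group floor of 3 counts reflect counting error alone. No 2 replicates were alike within counting noise (chi-square per gene 6.55 to 43.9). The procedure was run on simulated counts with the same spread for all genes. That run does not show how it behaves at the spread of these replicates. The genes named are the 9 members, Itga2, called or defining genes of the lists, and the 2 genes nearest to each member, except for items that are not reported here. Members and lists were chosen with earlier results of these data known. Alternatives were RLE or library-total scaling, no filter or a stricter one (CPM of 1 throughout a group), DESeq2 1.42.0, limma-voom (limma 3.58.1), a fold of at least 2, other choices of libraries in the fit, the replicate block and each library left out. Promoters are from RefSeq. Promoters of Lama5, Nid1 and the beta chains were found in that table, those of Lama3, Lama4, Lamc1 and Nid2 were not used here.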

Additional observations from a re-analysis of the deposited data

Results flagged for a closer look

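The effect of the knockout differed between tumours and culture, by the interaction test of edgeR with Benjamini-Hochberg adjustment, for 3 of the 9 genes and 4 genes of the related lists. The 4 were 1 of 18 other basement membrane components tested, 1 of 16 enzymes, and 1 higher and 1 lower of 13 regulators. None of 10 receptors or 5 other laminin-type chains was called, and 5.69% of all 16793 genes tested were. For Lamb2 the effect in tumours minus that in culture was -1.70 on the log2 scale (adjusted p = 0.00941). For Lamc1 it was -1.42 (adjusted p = 0.0113). For Lama3 the ratio KO over WT in tumours, divided by that in culture, was 169.7 (adjusted p = 0.0247), with 2 counts behind the KO cultures. Among the related genes the difference was 3.04 for Egflam, a matrix protein that binds dystroglycan (adjusted p = 0.0158), on 3 and 5 counts in the KO cultures. It was 2.57 for the repressor Zeb2 (0.0159), -1.34 for the repressor Snai2 (0.0489) and -1.003 for the matrix protease Mmp14 (0.0201). Each of these 7 calls was lost without at least 1 single culture, and that of Snai2 in 10 of 17 alternatives. The tumour and culture libraries also differ in host cells and in the enzymatic dissociation, whose part in these differences was not tested. Groups of 2 and 3 libraries were not tested for single outlying values.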

How the results depend on the processing

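Of 679 tests of the 9 genes under the alternatives of processing, 600 kept direction and side of the threshold, 29 lost the call, 38 gained it and 12 turned sign. None of the 12 was called. The alternative of a fold of at least 2 reused the reported fit, so it could lose calls but neither gain them nor turn a sign. With single libraries left out, Lama5 ran from -0.20 to 0.58 in KO versus WT in culture, Nid1 from -0.77 to 0.20 and Nid2 from -0.29 to 0.50 for the KO effect in tumours minus KO effect in culture. For tumour versus culture in KO, Lama5 ran from -0.21 to 0.71, Lamb3 from -1.45 to 0.13, Lamc1 from -0.036 to 0.32 and Nid1 from -0.14 to 0.83. For tumour versus culture in WT, Lamb1 ran from -0.40 to 0.039 and was 0.29 with library totals.

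Asking for a fold of at least 2 left 1776 calls in KO versus WT in culture, 0 of them members called higher, and 1832 in KO versus WT in tumours, with 1 member lower. Without a filter on low counts 2 members were higher in KO versus WT in tumours, 1875 genes differed in the effect between settings (2 members higher, 4 lower), and 2 members were lower for tumour versus culture in KO. With DESeq2 1625 genes differed in the effect between settings, with 2 members higher, and with limma-voom 0 members were higher. Library totals called 6 members higher for tumour versus culture in KO. In 1 fit of all 9 libraries 1 member was higher and 1 lower in culture, and 2 were higher in tumours. The cause was not tested.

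Leaving out 1 library gave 2130 to 2985 calls in KO versus WT in culture (lowest without WT culture 2), 1171 to 4143 in KO versus WT in tumours (lowest without WT tumour 2, highest without KO tumour 3) and 288 to 1651 for KO effect in tumours minus KO effect in culture (lowest without KO culture 1, highest without KO tumour 3). It gave 7224 to 10005 for tumour versus culture in KO and 8045 to 11864 for tumour versus culture in WT. Members higher and lower numbered 0 to 3 and 2 to 3 in culture, 0 to 2 and 2 to 5 in tumours, 0 to 2 and 0 to 4 for the difference, 3 to 4 and 1 to 2 for tumour versus culture in KO, and 5 to 7 and 1 to 1 in WT. A library left alone in its group is assumed to vary like the others.

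With the replicate block 7587 genes were called in culture, with 4 members higher and 4 lower, where Lama5, Lamc1, Nid1 and Nid2 were added. Deviations of same-numbered KO and WT cultures correlated at r = 0.49 over 13573 genes. The labels give these cultures the same number and do not say whether they share anything else. With 2 pairs this was not tested, and the reported test in culture leaves the pairing out. No paired analysis was possible in tumours because the KO columns are numbered 1 and 3 and the labels 1 and 2. Shares of chains depend on the gene lengths: with coding length 18 levels moved beyond their spread and 14 did not. Without Flt1, left out after seeing the data, the endothelial sums of KO and WT tumours overlapped.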

Other observations

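By root mean square difference of log2 CPM centred over the 9 libraries, among 10914 genes with a mean CPM of at least 5, the gene nearest to Lamb2 was the member Lamc1 (0.215). The genes nearest to Lamc1 were Mmp14 (0.147), a membrane-bound matrix protease, and Pkd2 (0.163). Nearest to Lama5 were Kdm6b (0.103) and Zfp609 (0.107), and nearest to Nid2 were Plppr3 (0.0916) and Cep250 (0.175). Nearest to Nid1 were Fancd2 (0.146) and Pkmyt1 (0.147), and nearest to Lama4 were Inhbb (0.153) and Adam19 (0.184). Lamb3 lay nearest to Cdhr2 (0.194) and Tdrp (0.305), and Lamb1 nearest to Epor (0.233) and Kif7 (0.303). Lama3 was nearest to Cyp21a1 (0.468). The next gene to Lamb2 was Golim4 (0.23). The likeness is over 9 libraries of 4 groups and carries no test.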
